A study of Mus musculus with 6 samples.

Results

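The genes described here are 9 members of the PARP family, Parp1, Parp2, Parp3, Parp8, Parp9, Parp10, Parp12, Parp14 and Parp16, together with Dtx3l, the ubiquitin ligase partner of Parp9. They were taken by gene symbol from the 13405 genes listed for each library, and all 10 were present and passed the filter on low values. The series compares ATM KO 4T1 cells (3 libraries, Atm knocked out) with vector control 4T1 cells (3 libraries), all grown in vitro. 4T1 is a mammary carcinoma line from the Balb/c mouse strain, and ATM is the kinase that signals DNA breaks. Neither the origin of the libraries (separate cultures, clones or days) nor the way Atm was knocked out is given in the labels. The p-values therefore reflect only the variation from library to library, which may be technical.

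PARP enzymes take ADP-ribose from NAD and attach it to proteins and nucleic acids. Parp1, Parp2 and Parp3 are switched on by DNA breaks, and Parp1 and Parp2 build long chains of ADP-ribose that recruit repair proteins. Most other members attach 1 unit at a time. Several of these, with Dtx3l, are known as interferon-stimulated genes that act against viruses or adjust cytokine signalling. Parp9, Parp10, Parp12, Parp14 and Dtx3l are called interferon-linked below from this background, since the series holds no interferon treatment. Parp8 and Parp16 were put in neither class. The comparison of ATM KO with control cells asks about both classes, because the series' title ties loss of ATM function to cytosolic DNA sensing, a pathway that ends in interferon.

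Values are normalized read counts, in which each library's gene counts were divided by a constant of that library. Between 22494919 and 32341508 reads per library fell on the listed genes, and the members had between 186 and 8375 reads in any library. Fold changes are differences of mean log2(value + 1), ATM KO minus vector control, a scale that understates changes of low genes. In bulk libraries fewer cells with an RNA and less of it per cell cannot be told apart. Atm itself had 1959, 2220 and 1591 normalized counts in ATM KO 1 to 3, against 1978, 1613 and 1519 in vector controls 1 to 3 (log2 0.17, SE 0.19), so its mRNA level does not check the labels. On the first principal component of all genes ATM KO 1 to 3 lay at 3.19, -41.5 and 50.7, and vector control 1 stood apart from its group, at -86.2 beside 36.9 and 37.0 for vector controls 2 and 3. Vector controls 2 and 3 lay close together, with a chi-square per gene of 16.3 against 76.9 to 365 for the other pairs, and no member differed between them by more than 6.69%. That is above counting noise, so they were kept as separate libraries, but if both came from 1 culture the controls hold fewer independent samples than 3. Of 9 mammary epithelial markers 7 were listed, with summed levels of 110019 to 147310 in ATM KO and 86476 to 112322 in control libraries. Of 19 immune, fibroblast and endothelial markers 5 were listed, and the summed level of each of the 3 sets overlapped between the groups and reached at most 1080.

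Parp9, Dtx3l and Parp14 lie together on chromosome 16. Parp9 (ENSMUSG00000022906, 35938470 to 35972605, plus strand, GRCm38) and Dtx3l (ENSMUSG00000049502, 35926511 to 35939151, minus strand) point away from each other, and their annotated gene bodies share 682 bases at the 5′ ends. Parp14 (ENSMUSG00000034422, 35832874 to 35871544, minus strand) starts 54966 bases beyond the 3′ end of Dtx3l. Within their exons Parp9 and Dtx3l share 458 bases on opposite strands. The labels do not give the strand setting of the counting, so reads on those bases may have been lost or shared between the 2 genes.

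**Figure D1:**
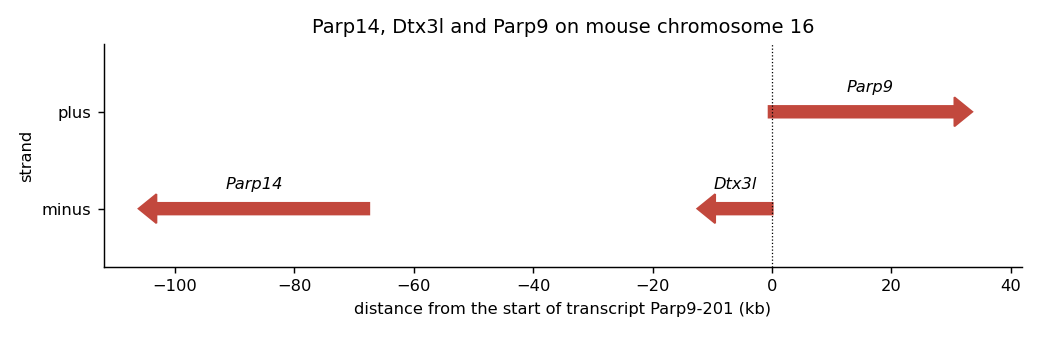
Gene bodies of Parp14, Dtx3l and Parp9 on mouse chromosome 16 (GENCODE M21), plotted by strand as distance in kb from the start of transcript Parp9-201, with arrowheads at the 3′ ends. The gene bodies of Dtx3l and Parp9 share 682 bases at their starts and run in opposite directions, and 54966 bases separate Dtx3l from Parp14.

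RefSeq promoter windows on GRCm38.p6, from 250 bases before to 50 after a gene's start, matched 7 of the 10 members. Those of Dtx3l, Parp12 and Parp1 are shown 5′ to 3′ on the gene's own strand. The Dtx3l window also holds the start of transcript Parp9-201, and the other 2 are 1 interferon-linked and 1 DNA damage promoter. In the Dtx3l window the capitals mark 17 bases (chr16:35939011-35939027). They run from the RefSeq start of Dtx3l to the GENCODE M21 start of transcript Parp9-201 on the other strand. GENCODE M21 itself places the Dtx3l start at 35939151 and the most upstream Parp9 start, of Parp9-203, at 35938470, outside this window. The 17 bases therefore hold only for the 2 starts named. In the other 2 windows nothing is marked.
Dtx3l, chr16:35938978-35939277, minus strand: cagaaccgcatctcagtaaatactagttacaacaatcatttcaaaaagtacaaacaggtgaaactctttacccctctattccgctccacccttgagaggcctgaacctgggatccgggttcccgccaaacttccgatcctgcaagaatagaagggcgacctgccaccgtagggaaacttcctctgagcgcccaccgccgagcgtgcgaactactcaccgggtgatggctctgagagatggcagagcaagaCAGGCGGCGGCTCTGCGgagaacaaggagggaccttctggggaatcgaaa
Parp12, chr6:39118300-39118599, minus strand: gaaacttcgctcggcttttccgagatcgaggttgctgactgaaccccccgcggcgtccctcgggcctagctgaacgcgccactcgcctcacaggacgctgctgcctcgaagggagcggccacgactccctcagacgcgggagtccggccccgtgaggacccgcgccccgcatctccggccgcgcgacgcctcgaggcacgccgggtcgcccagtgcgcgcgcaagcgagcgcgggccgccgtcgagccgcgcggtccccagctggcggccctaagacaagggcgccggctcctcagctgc
Parp1, chr1:180568641-180568940, plus strand: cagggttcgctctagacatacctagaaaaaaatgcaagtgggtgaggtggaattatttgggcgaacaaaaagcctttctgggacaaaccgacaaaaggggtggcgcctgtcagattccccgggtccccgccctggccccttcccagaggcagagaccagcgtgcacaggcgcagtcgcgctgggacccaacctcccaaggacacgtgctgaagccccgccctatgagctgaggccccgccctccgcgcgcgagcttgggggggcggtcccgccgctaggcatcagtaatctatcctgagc
Both strands of each window were searched for an interferon-stimulated response element (ISRE) written as GAAANNGAAA and for a gamma-activated site (GAS) written as TTCNNNGAA. Of 32851 RefSeq windows of this length, 3.44% hold the ISRE letters and 8.3% the GAS letters. None of the 7 members' windows held the ISRE letters (0), and 1 held the GAS letters, that of Parp16, as TTCAGAGAA. Parp9, Parp10 and Parp14 had no window of their own, so of the interferon-linked genes only Dtx3l and Parp12 were searched. No match says only that these letters are not in these 300 bases. The Parp12 window was the richest of the 7 in G and C (73.7%, with 46 CpG) and that of Dtx3l had 54.3% G and C and 17 CpG.

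Levels of different genes were compared per kilobase of annotated exon. Parp1 was the highest of the 10 in every library, at 1186 ± 296 normalized counts per kb in ATM KO and 1364 ± 153 in control cells (SD, n = 3 each). Its lowest library (879 per kb) lay above the highest library of Parp16 (674 per kb), the next in order. Parp16 stood at 464 ± 191 per kb in ATM KO and 518 ± 244 in control cells. In control cells Parp2 (323 ± 9.47 per kb), Dtx3l (307 ± 121) and Parp9 (265 ± 111) followed within their spread, then Parp12 (191 ± 30.1) and Parp3 (149 ± 19.9). Parp10, Parp14 and Parp8 closed the order at 88.8 ± 40.4, 84.4 ± 44.1 and 66.7 ± 12.1 per kb and did not differ beyond their spread. In ATM KO cells Dtx3l (401 ± 80.7 per kb), Parp9 (347 ± 93.5) and Parp12 (304 ± 57.2) stood level with or above Parp2 (301 ± 34.4). Exon lengths are the union of all annotated transcripts, from 3628 bases for Parp2 to 9306 for Parp14, and understate the level of a gene whose main transcript is shorter.

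**Figure D2:**
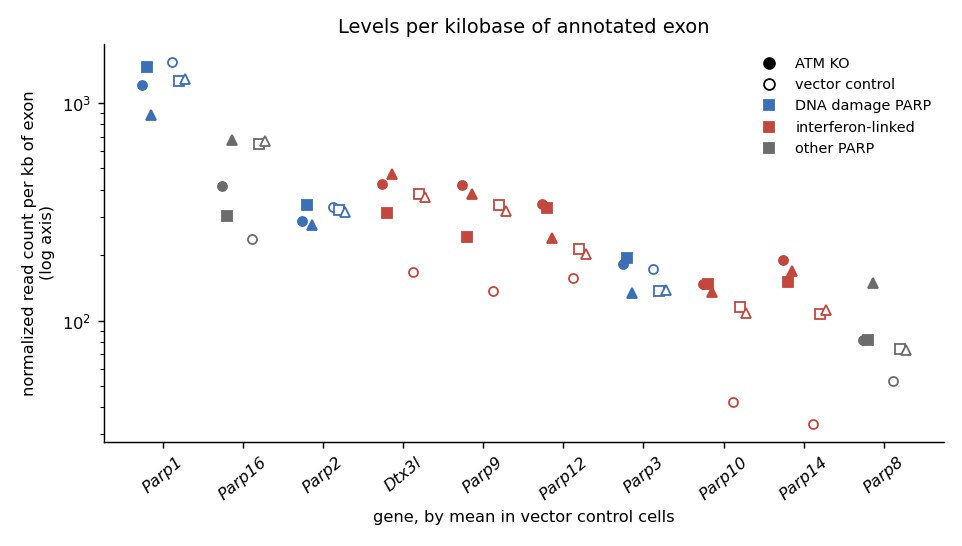
Normalized read count per kb of annotated exon (log axis) for the 10 genes, ordered by their mean in vector control cells, with ATM KO libraries as filled and vector control libraries as open symbols (circle, square and triangle for libraries 1, 2 and 3). Parp1 lies above all others, between 879 and 1540 per kb, and the open circles of vector control 1 are the lowest points of Parp8, Parp9, Parp10, Parp12, Parp14, Parp16 and Dtx3l.

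All 5 interferon-linked genes had positive fold changes, from 0.46 for Parp9 to 1.19 for Parp14 with a median of 0.67, while the 3 DNA damage PARPs lay between -0.23 and 0.18 with a median of -0.11. When vector control 1 was left out, the medians were 0.35 and -0.09, and Parp9 and Dtx3l fell to 0.04 and 0.07. With all 6 libraries the median over the 12149 genes tested was -0.01, and 48.6% of those genes had positive values. In Parp8, Parp10, Parp12 and Parp14 all 3 ATM KO libraries exceeded all 3 controls, 4 of 10 members where 5.7% of all genes tested did so, and in 0 of 10 were all 3 below (5.48% of all genes). No member passed a test across all genes. By limma with Benjamini-Hochberg adjustment 0 of 10 members and 0% of all genes passed, by edgeR's quasi-likelihood test 0 of 10 and 0%, and by DESeq2 0 of 10 and 0.692%. At an unadjusted p under 0.05 limma and DESeq2 each picked Parp12 and Parp14, 2 of 10 members where 4.16% and 5.9% of all genes were picked, and edgeR picked Parp12 (4.3% of all genes). The members and their 2 classes were chosen with results of these libraries known, so these counts describe them and are no independent support. Whether the 2 classes differ was not tested.

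**Figure D3:**
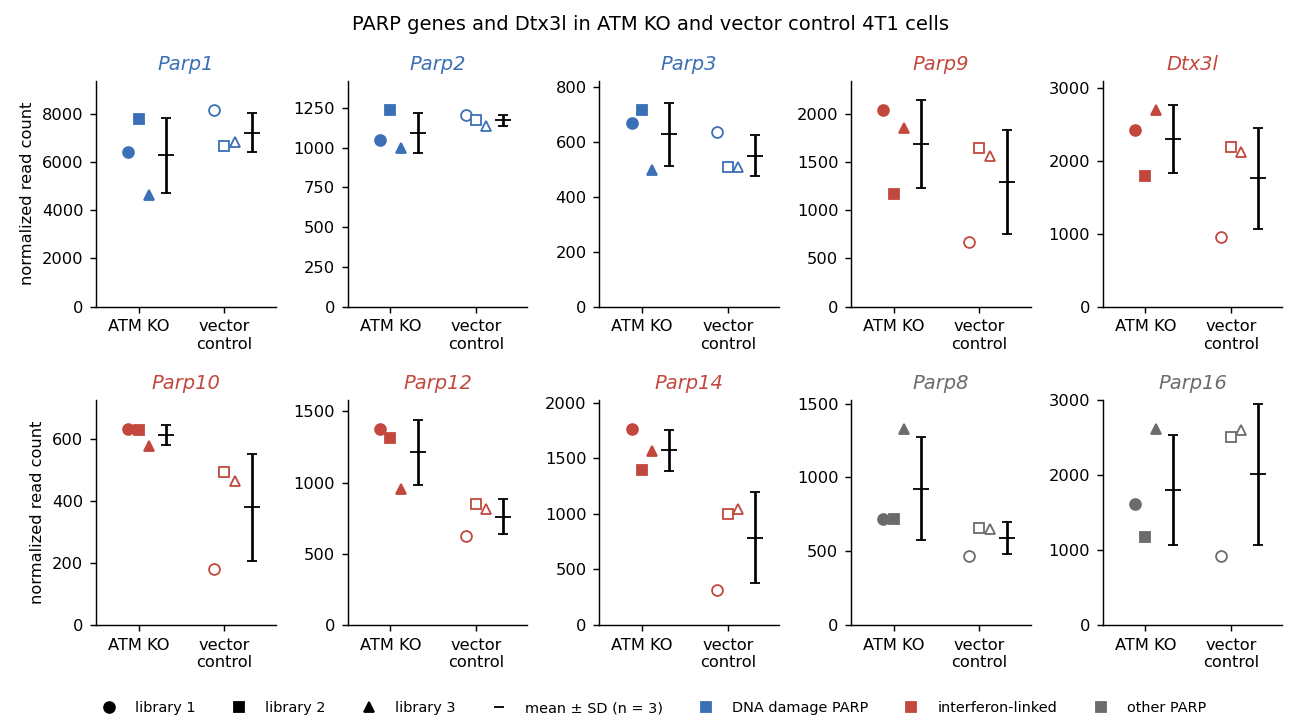
Normalized read counts of each gene by library, ATM KO as filled and vector control as open symbols, with mean ± SD (n = 3) beside each group and axes from 0. In Parp10, Parp12, Parp14 and Parp8 the 3 ATM KO libraries lie above the 3 controls, and in Parp9, Dtx3l and Parp16 the groups overlap around a low vector control 1.

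Parp1, Parp2 and Parp3 are the break-activated enzymes. Parp1 (ENSMUSG00000026496, chromosome 1, 180568924 to 180601254, plus strand), the main sensor of DNA strand breaks, had 6413, 7774 and 4651 normalized counts in ATM KO 1 to 3, against 8149, 6662 and 6848 in vector controls 1 to 3. ATM KO 3 was the lowest and vector control 1 the highest of the 6, and ATM KO 2 lay within the control range. The log2 fold change was -0.23 (SE 0.22), with a 95% interval from -0.75 to 0.30. Without ATM KO 3 it was -0.03, and without ATM KO 2 it was -0.40.

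Parp2 (ENSMUSG00000036023, chromosome 14, 50807841 to 50821301, plus strand), which shares substrates with Parp1 and acts in base excision repair, had 1045, 1234 and 998 in ATM KO 1 to 3 and 1207, 1172 and 1138 in vector controls 1 to 3. It varied least of the 10 genes, and ATM KO 2 was its highest library. The log2 fold change of -0.11 (SE 0.16) had a 95% interval from -0.49 to 0.28, which covers small differences either way.

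Parp3 (ENSMUSG00000023249, chromosome 9, 106470322 to 106476949, minus strand), which acts in the joining of double-strand breaks, had 671, 715 and 497 in ATM KO 1 to 3, against 635, 508 and 509 in vector controls 1 to 3. The groups overlapped through ATM KO 3, the lowest library, and the log2 fold change was 0.18 (SE 0.22, 95% interval from -0.36 to 0.71). Its exons share 20 bases with Rrp9 on the other strand. Divided by Parp1 within each library, Parp3 stood at 0.105, 0.0920 and 0.107 in ATM KO 1 to 3 and at 0.0780, 0.0762 and 0.0743 in vector controls 1 to 3. This ratio did not overlap between the groups, which held in the same direction for 9.52% of all genes tested when divided by Parp1. The Parp2 to Parp1 ratio overlapped, at 0.163, 0.159 and 0.215 in ATM KO cells and 0.148, 0.176 and 0.166 in control cells. These are 2 of 5 ratios computed.

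Parp9 and Dtx3l form a complex in which Parp9 binds ADP-ribose through its macrodomains and Dtx3l transfers ubiquitin, and the pair is known both at DNA damage sites and in interferon signalling. Parp9 had 2037, 1174 and 1858 normalized counts in ATM KO 1 to 3, against 669, 1650 and 1559 in vector controls 1 to 3. Dtx3l had 2419, 1788 and 2689 in ATM KO 1 to 3 and 957, 2188 and 2121 in vector controls 1 to 3. In both genes vector control 1 was the lowest of all 6 libraries and ATM KO 2 lay below vector controls 2 and 3, so the groups overlapped.

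The log2 fold change of Parp9 was 0.46 (SE 0.41, 95% interval from -0.53 to 1.44), and that of Dtx3l was 0.46 (SE 0.36, 95% interval from -0.41 to 1.33). Both rest on vector control 1. Without it they were 0.04 for Parp9 and 0.07 for Dtx3l. Parp9 over Dtx3l stood at 0.842, 0.656 and 0.691 in ATM KO 1 to 3 and 0.699, 0.754 and 0.735 in vector controls 1 to 3. The group means of this ratio were alike, 0.730 ± 0.0988 against 0.729 ± 0.0279 (SD, n = 3 each), with a wider spread among the ATM KO libraries.

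Parp14, a large enzyme with macrodomains known as a cofactor of STAT6 and a regulator of macrophage activation, showed the largest fold change of the 10 genes. It had 1766, 1397 and 1564 normalized counts in ATM KO 1 to 3, against 312, 997 and 1045 in vector controls 1 to 3. All 3 ATM KO libraries lay above the controls, and vector control 1 was far below the other controls. The mean was 1576 ± 184 in ATM KO and 785 ± 410 in control cells (SD, n = 3 each), a log2 fold change of 1.19 (SE 0.48, 95% interval from 0.04 to 2.34). The adjusted p was 0.999 by limma and 0.711 by DESeq2.

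Without vector control 1 the fold change of Parp14 was 0.62 by limma with an adjusted p of 0.250, and its SE was then 0.16 in place of 0.48. DESeq2 on those 5 libraries, an alternative chosen after seeing the data, gave 0.63 with an adjusted p of 0.0238. In that comparison 4.57% of all genes passed, 2.55% as higher in ATM KO cells, and Parp14 was the only 1 of the 10 members to do so. The control side of that comparison holds only vector controls 2 and 3, the closest pair of libraries. Divided by Dtx3l, Parp14 stood at 0.730, 0.782 and 0.582 in ATM KO 1 to 3 and 0.326, 0.456 and 0.493 in vector controls 1 to 3. Divided by Parp9, it stood at 0.867, 1.19 and 0.842 in ATM KO 1 to 3 and 0.467, 0.604 and 0.670 in vector controls 1 to 3. Neither ratio overlapped between the groups. Of all genes tested, 1.03% lay above in this way when divided by Dtx3l and 1.07% when divided by Parp9.

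Parp12 (ENSMUSG00000038507, chromosome 6, 39086410 to 39118349, minus strand), an antiviral enzyme with RNA-binding zinc fingers, had 1377, 1314 and 953 normalized counts in ATM KO 1 to 3, against 625, 849 and 811 in vector controls 1 to 3. The lowest ATM KO library, ATM KO 3, still lay above the highest control, vector control 2. The log2 fold change was 0.67 (SE 0.22, 95% interval from 0.13 to 1.21), with an adjusted p of 0.999 by limma and 0.329 by DESeq2. It was the interferon-linked gene that depended least on vector control 1, at 0.53 without that library, and it was 0.83 without ATM KO 3.

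Parp10 (ENSMUSG00000063268, chromosome 15, 76231174 to 76243441, minus strand), an enzyme first found as a partner of MYC, had 631, 628 and 576 in ATM KO 1 to 3, against 181, 494 and 463 in vector controls 1 to 3. The ATM KO libraries lay close together and above all controls. The log2 fold change of 0.82 (SE 0.41, 95% interval from -0.16 to 1.80) was 0.35 without vector control 1. Parp10 shares 205 exon bases with Plec on the same strand, where reads cannot be assigned to 1 of the 2 genes.

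**Figure D4:**
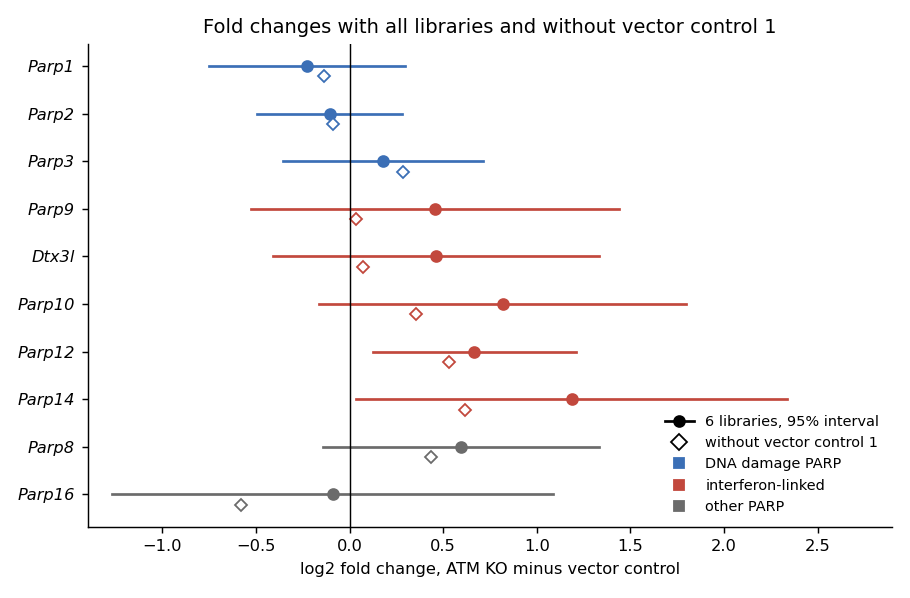
Log2 fold changes, ATM KO minus vector control, with 95% intervals from limma on all 6 libraries (filled circles) and the value without vector control 1 (open diamonds). Only the intervals of Parp12 and Parp14 lie above 0, and without vector control 1 Parp9 and Dtx3l move to 0.04 and 0.07 while Parp12 and Parp14 stay at 0.53 and 0.62.

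Parp8 and Parp16 belong to neither class. Parp8 (ENSMUSG00000021725, chromosome 13, 116854820 to 117025537, minus strand), a little studied enzyme, had 721, 720 and 1328 normalized counts in ATM KO 1 to 3, against 468, 660 and 648 in vector controls 1 to 3. All ATM KO libraries lay above the controls, the first pair by a small margin. Its log2 fold change of 0.59 (SE 0.31, 95% interval from -0.14 to 1.33) was 0.30 without ATM KO 3 and 0.43 without vector control 1.

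Parp16 (ENSMUSG00000032392, chromosome 9, 65195353 to 65239224, plus strand), a membrane enzyme of the endoplasmic reticulum that acts on stress sensors there, had 1620, 1173 and 2618 in ATM KO 1 to 3, against 919, 2514 and 2600 in vector controls 1 to 3. It was low in ATM KO 2 and vector control 1 and high in ATM KO 3 and vector controls 2 and 3. The log2 fold change of -0.09 (SE 0.49, 95% interval from -1.27 to 1.09) ranged from -0.58 without vector control 1 to 0.18 without ATM KO 2, so it has no direction here.

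Across libraries the members fell into different patterns rather than 1. Vector control 1 had the lowest value of Parp8, Parp9, Parp10, Parp12, Parp14, Parp16 and Dtx3l, with deviations from the gene mean between -1.73 (Parp14) and -0.61 (Parp12) on the log2 scale. In the same library Parp1, Parp2 and Parp3 stood at 0.29, 0.10 and 0.13 above their means. The median deviation of the 5 interferon-linked genes was 0.53, 0.43 and 0.40 in ATM KO 1 to 3, against -1.07, 0.10 and 0.01 in vector controls 1 to 3. That of the 3 DNA damage PARPs was -0.05, 0.23 and -0.23 in ATM KO cells and 0.13, 0.00 and 0.01 in control cells. ATM KO 2, the other library low on the first principal component, was below the gene mean for Parp9, Dtx3l and Parp16 (-0.26, -0.11 and -0.59) but above it for Parp10, Parp12 and Parp14 (0.45, 0.46 and 0.43). Without ATM KO 2 the median fold change of the interferon-linked genes was 0.70 and that of the DNA damage PARPs -0.20. Without vector control 1 the medians were 0.35 and -0.09.

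**Figure D5:**
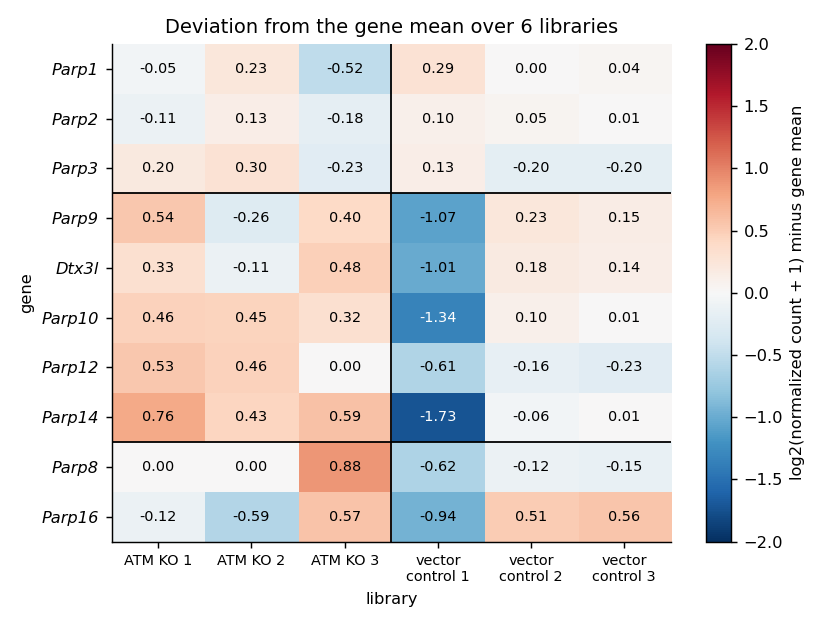
Deviation of each library from the gene's mean over the 6 libraries, log2(normalized count + 1), with ATM KO libraries left of the vertical line and vector controls right of it, and DNA damage, interferon-linked and other PARP genes from top to bottom. Vector control 1 is the lowest library of all genes below Parp3, from -1.73 to -0.61, and ATM KO 2 separates Parp9 and Dtx3l (-0.26 and -0.11) from Parp10, Parp12 and Parp14 (0.45, 0.46 and 0.43).

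Likeness between genes was measured as the root mean square difference of their log2 profiles over the 6 libraries, each centred on its own mean. Dtx3l ranked 12 of 12148 other genes in likeness to Parp9, and Parp9 ranked 24 for Dtx3l. Parp10 ranked 10 in likeness to Parp14, with Dtx3l at 124, Parp9 at 131 and Parp12 at 443. The 3 genes most like Parp9 were Cpt1a (0.06 on the log2 scale), the carnitine palmitoyltransferase of fatty acid oxidation, Grn (0.07), which encodes progranulin, and the low-count gene Nov (0.08). Those most like Parp14 were Mycl1 (0.10), Ccdc68 (0.12) and Shisa4 (0.15). In all 3 of these the ATM KO libraries exceeded the controls without overlap, as in 5.7% of all genes tested. They were picked for a profile like that of Parp14, whose groups do not overlap either, so this is no separate result. Those most like Parp1 were Tmem11 (0.02), Nup205, a nuclear pore subunit (0.03), and Suz12, a Polycomb subunit (0.03). Parp2 ranked 812 and Parp3 1630 in likeness to Parp1, at differences of 0.17 and 0.21. From Parp14 the differences were larger, 0.24 for Parp10, 0.43 for Dtx3l and Parp9 and 0.54 for Parp12. Between Parp9 and Dtx3l the difference was smaller, 0.11. Ranks for different genes are thus not comparable, as Parp14 varied more around its own mean (root mean square 0.83) than Parp1 (0.26). Profiles over 6 libraries share the axis of vector control 1, and the ranks are a description.

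The rest of the family held positive and negative fold changes. Of 7 other PARP genes 3 were positive and 4 negative with a median of -0.07, and 2 were positive and 5 negative without vector control 1, with a median of -0.32. In the fits on all 6 libraries 0 passed limma, edgeR or DESeq2 (0%, 0% and 0.692% of all genes). At an unadjusted p under 0.05 there were 0 by each of the 3 (4.16%, 4.3% and 5.9% of all genes). Tnks2, the tankyrase with the highest count, stood at 20711 ± 5009 normalized counts in ATM KO and 21465 ± 3354 in control cells (SD, n = 3 each), and Tnks at 5568 ± 1968 and 6581 ± 2499. Zc3hav1, the catalytically inactive antiviral member known as ZAP, stood at 5059 ± 337 in ATM KO and 4611 ± 557 in control cells and overlapped. Chosen after their values were seen, Parp11 was the 1 gene of the list whose ATM KO libraries all exceeded the controls (368, 386 and 648 against 163, 363 and 338), and Tiparp the 1 whose ATM KO libraries were all below (3174, 2354 and 3318 against 3516, 3636 and 3632), where 5.7% and 5.48% of all genes tested were above and below in this way.

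Enzymes that remove ADP-ribose and ubiquitin ligases related to Dtx3l had median fold changes near 0. Of 8 hydrolases 3 were positive and 5 negative with a median of -0.02, which was -0.05 without vector control 1. In 1 hydrolase all ATM KO libraries exceeded the controls (5.7% of all genes tested did so), and in 1 all were below (5.48%). Of 4 Deltex and ADP-ribose binding ligases 3 were positive and 1 negative with a median of 0.13, which was 0.04 without vector control 1, and by DESeq2 4 of 4 were positive. None passed limma, edgeR or DESeq2 (0 of 12, against 0%, 0% and 0.692% of all genes). At an unadjusted p under 0.05 there were 0 by each (4.16%, 4.3% and 5.9% of all genes). Parg, which takes ADP-ribose chains apart, stood at 2464 ± 355 normalized counts in ATM KO and 2512 ± 832 in control cells. Nudt9 stood at 3236 ± 1470 and 3260 ± 1152, and Adprh at 1509 ± 148 and 1581 ± 357. Among the ligases Dtx4 stood at 1896 ± 555 in ATM KO and 1355 ± 66.5 in control cells, Rnf146, which reads ADP-ribose chains, at 1157 ± 176 and 1150 ± 23.9, and Dtx3 at 1124 ± 363 and 938 ± 240.

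Of 14 repair partners of the DNA damage PARPs, 5 were positive and 9 negative, with a median of -0.13. By limma, edgeR and DESeq2 0 of 14 passed (0%, 0% and 0.692% of all genes). By each, 0 of 14 had an unadjusted p under 0.05 (4.16%, 4.3% and 5.9% of all genes). Lig3, the ligase of single-strand break repair, stood at 2826 ± 770 normalized counts in ATM KO and 3393 ± 841 in control cells. Xrcc5, which encodes the Ku80 subunit, stood at 2163 ± 182 and 2442 ± 325. Timeless, a replication fork protein that binds Parp1, did not overlap between the groups, at 2082, 2010 and 1376 against 2450, 2217 and 2276 in the controls (log2 -0.37, SE 0.20), the 1 gene of the list to do so, where 5.48% of all genes tested were below in this way.

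Genes of interferon signalling above the interferon-linked PARPs were positive in 11 of 11 on the log2(value + 1) scale, where 48.6% of all genes tested were positive, with a median of 0.20. The count rests on vector control 1 and on the scale. Without that library 6 of 11 were positive with a median of 0.04, and by DESeq2 on all 6 libraries 9 of 11 were, with Jak2 and Tyk2 slightly below 0. By limma, edgeR and DESeq2 0 of 11 passed (0%, 0% and 0.692% of all genes). By each, 1 of 11 had an unadjusted p under 0.05 (4.16%, 4.3% and 5.9% of all genes). Ifnar2, a chain of the type I interferon receptor, had 1004, 835 and 813 normalized counts in ATM KO 1 to 3, against 657, 670 and 599 in vector controls 1 to 3 (log2 0.46, SE 0.17). Irf1, a transcription factor of interferon responses, had 2876, 1984 and 1918 against 517, 1614 and 1710 (log2 0.98, SE 0.49). These are the 2 genes of the list, of 11, whose ATM KO libraries all exceeded the controls (5.7% of all genes tested did so), and both were named after their values were seen. The 3 members with the highest counts were Jak2 (5452 ± 2266 in ATM KO and 5478 ± 3358 in control cells), Jak1 (5441 ± 922 and 5116 ± 237) and Ifnar1 (2866 ± 595 and 2690 ± 1082).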

How the data were processed

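RNA-seq of 6 libraries was used, grouped by sample title. Per the submitters' processing notes, the tools were STAR, HTSeq, SAMtools, DESeq2, cutadapt and Trim Galore and the builds GRCm38 and mm9, with no version or role given. The authors' deposited value for a gene is a signal, its read count over a constant of the library. The values themselves show this, since all of them (100%) were whole multiples of 1 step per library within 0.01 reads. Of 13405 listed gene IDs, 98.8% are in GENCODE M21 on GRCm38, the source of coordinates and exon lengths. The 12149 genes with a mean value of at least 10 were tested on log2(value + 1) with limma 3.58.1 in R 4.3.3 (mean-variance trend, 2-sided, Benjamini-Hochberg adjustment over all of them, threshold 0.05). On recovered reads edgeR 4.0.16 and DESeq2 1.42.0 were alternatives. Other alternatives changed the filter, pseudocount, scaling, trend, block and libraries. Scripts were tested on simulated data. The named genes are the 10 members, the up to 3 highest and any called genes of 7 lists, and the genes most like Parp1, Parp9 and Parp14. Parp11, Tiparp, Ifnar2, Irf1, Tyk2 and Ddit3 were named outside this rule, after their values were seen. Members and lists were chosen with earlier results of these data known. The values of 1 gene of the interferon signalling list are not reported here.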

Additional observations from a re-analysis of the deposited data

How the results depend on the processing

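limma and edgeR called 0 genes, and DESeq2 called 84. By limma 0 were called under each alternative, and by DESeq2 between 17 (without vector control 2) and 544 (without vector control 1) when 1 library was left out, with 22 without vector control 3 and 31, 91 and 74 without ATM KO 1, 2 and 3. The cause was not tested. Of 210 member values under 21 alternatives, 203 kept direction and side of the threshold, 1 passed it (Parp14 by DESeq2 without vector control 1) and 6 turned, all of Parp16, which ran from -0.58 to 0.18 by limma and from -0.52 to 0.0753 by DESeq2 with 1 library left out (positive at 0.0753 without ATM KO 2 and at 0.0373 and 0.0728 without vector controls 2 and 3). The interferon-linked median ran from 0.35 (without vector control 1) to 0.83 (without ATM KO 3) and the DNA damage median from -0.20 to -0.02. The TMM scaling left the median of all genes within 0.01. Deviations of same-numbered libraries from their group means correlated at -0.021, -0.582 and 0.528. Vector controls 2 and 3 gave nearly the same values, -0.582 and -0.591 with ATM KO 2 and 0.533 and 0.528 with ATM KO 3. The correlations therefore cannot show whether library numbers pair the samples. With the replicate block 0 genes passed and no member's call changed. The members' SEs were 0.16 to 0.49 with 3 libraries a group, and the unadjusted 95% intervals of all members except Parp12 and Parp14 covered 0.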

Other observations

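NAD is the substrate of the catalytically active PARP enzymes. Of 7 listed genes of NAD synthesis 3 were positive and 4 negative, with a median log2 fold change of -0.08, or -0.49 without vector control 1. By limma, edgeR and DESeq2 0 of 7 passed (0%, 0% and 0.692% of all genes). By each, 0 of 7 had an unadjusted p under 0.05 (4.16%, 4.3% and 5.9% of all genes). Nampt, the rate-limiting enzyme of NAD salvage, had 6801, 5955 and 8018 normalized counts in ATM KO 1 to 3, against 6067, 12479 and 12046 in vector controls 1 to 3. All 3 ATM KO libraries lay below vector controls 2 and 3, and vector control 1 lay among them. Nadk stood at 7954 ± 2304 in ATM KO and 6610 ± 3025 in control cells, and Nmnat2 at 2578 ± 2279 and 1007 ± 399 (SD, n = 3 each), with 5054 in ATM KO 3. In 1 of the 7 genes all ATM KO libraries exceeded the controls (5.7% of all genes tested did so), and in 0 all were below (5.48%).

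The 9 genes listed around Parp16 are genes of endoplasmic reticulum stress, except Kpnb1, which encodes a nuclear import receptor. Of these 9, 0 were positive and 9 negative (1 and 8 without vector control 1), with a median of -0.21, where 48.6% of all genes tested were positive. None passed limma, edgeR or DESeq2 (0 of 9, against 0%, 0% and 0.692% of all genes). By each, 1 had an unadjusted p under 0.05 (4.16%, 4.3% and 5.9% of all genes). This was Ddit3, which encodes the stress transcription factor CHOP. Ddit3, named after its values were seen, had 275, 135 and 259 normalized counts in ATM KO 1 to 3, against 288, 573 and 535 in vector controls 1 to 3 (log2 -1.06, SE 0.40). It was the 1 gene of the list whose groups did not overlap, where 5.48% of all genes tested were below in this way. Hspa5, the main chaperone of the compartment, stood at 26562 ± 6329 in ATM KO and 29285 ± 6251 in control cells, Hsp90b1 at 26688 ± 3200 and 31631 ± 8484, and Kpnb1 at 24056 ± 8622 and 31391 ± 8096.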
